A study of Mus musculus with 12 samples.

Results

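Cytosolic aminoacyl-tRNA synthetase genes whose human counterparts carry neuropathy mutations were followed in mouse spinal cord. They were Gars, Yars, Aars, Hars, Kars, Wars and Mars, taken by gene name, and make up 7 of the 38924 genes in the deposited tables. The mice were labelled heterozygous for the C201R allele of Gars or wild type (WT), all on the B6J.Cg background and all 8 weeks old. Their 12 RNA-seq libraries were titled as 3 C201R females, 3 C201R males, 3 WT females and 3 WT males. The allele was described in the labels by genotype alone, with no promoter, Cre driver or second allele, and every group shared the strain, the age and the tissue. The name of each sequencing library, given in a separate label, contradicted the title for 4 libraries. The titles give libraries 11 and 12 as C201R where the names give WT, and libraries 4 and 9 the other way round. Each comparison was therefore made by library name (C201R libraries 1, 2, 3, 4, 9 and 10, WT libraries 5, 6, 7, 8, 11 and 12), by title, and in the 8 libraries on which both labels agreed (C201R 1, 2, 3 and 10, WT 5, 6, 7 and 8).

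Aminoacyl-tRNA synthetases attach each amino acid to its tRNAs and so supply the ribosome. Most amino acids have one gene for the cytosolic enzyme and another for the mitochondrial enzyme, whereas Gars and Kars each encode both forms. Dominant mutations in several of these enzymes cause axonal Charcot-Marie-Tooth disease or distal motor neuropathy, in which motor and sensory axons degenerate although the enzymes act in every cell. Several synthetase genes are also known targets of ATF4, the transcription factor of the integrated stress response, which is set off when eIF2 alpha is phosphorylated.

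The residue changed in these mice lies in an exon of Gars, on the forward strand of chromosome 6 at 55038007 to 55079500 (GRCm38, GENCODE M21). Counted from the start of the coding sequence of 729 codons, the codon at the position in the allele name is TGC, a cysteine codon, at chr6:55052237-55052239 in exon 5 of 17. It is given in capitals within the reference sequence, because it is the codon that the allele changes.
Gars, chr6:55052237-55052239 with 12 bases on each side, forward strand: aagaacggagagTGCttccgagcagac
A change of 1 residue leaves reads assigned to the gene, so the level of Gars does not check the genotype labels.

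Promoter sequence is shown, 1 window a gene, for the members that hold the 8-base word TGATGNAA, the core of the composite element that C/EBP and ATF proteins such as ATF4 bind. It was searched on both strands from 250 bases before to 50 bases after each annotated start (RefSeq, GRCm38.p6). The word, in capitals, was found in 3 of the 5 members matched to a promoter in that table, namely Gars, Yars and Aars. Aars held 2 matches, and the one at bases -112 to -105 is not shown. Kars and Mars held no match in the window, and no promoter in the table was matched by name to Hars or Wars. Of all 27025 genes with a promoter, 4.51% held the word (3.97% of 32851 promoters), as did 2 of 9 other cytosolic synthetase genes (Iars and Tars) and 0 of 14 mitochondrial ones. A match describes these letters only and is no evidence of binding.
Gars, chr6:55037960-55037989, forward strand, word at bases -30 to -23: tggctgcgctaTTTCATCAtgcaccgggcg
Yars, chr4:129189895-129189924, forward strand, word at bases 4 to 11: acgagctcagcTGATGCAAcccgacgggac
Aars, chr8:111033840-111033869, forward strand, word at bases 10 to 17: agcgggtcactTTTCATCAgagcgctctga
In the Gars and Aars windows the word reads TGATGNAA on the reverse strand, and in Yars it reads so on the forward strand.

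The libraries held 27175421 to 38271405 expected counts each, and 22057 to 22579 genes had a value above 0. Log2 levels correlated between libraries at 0.981 to 0.996 over 66 pairs. Hox genes of the spinal cord summed to 199.5 to 229.1 CPM and motor neuron genes to 308.4 CPM or more in every library. By Xist and Y-linked genes, 6 libraries (2, 3, 4, 5, 6 and 8) went against their titled sex. Libraries 1, 2, 3, 8, 11 and 12 thus read as female, and 4, 5, 6, 7, 9 and 10 as male. By title, every C201R library but 10 then read as female and every WT library but 8 as male. The same exceptions hold in the 8 libraries with agreeing labels. In both groupings genotype is largely confounded with expressed sex. By library name each genotype held both sexes equally. The fits used the titled sex as a term, not this expressed sex. Skeletal muscle genes took 0.13 to 0.269% of counts in libraries 1, 3, 6 and 8, and 0.00707 to 0.0677% in the others. Whether each library came from a separate animal is not stated, so p-values rest on the spread between libraries, which may be technical. In bulk tissue, fewer cells of a type and less RNA per cell cannot be told apart.

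All members were well measured and all passed the filter on low counts. Gars had 3584 to 5820 expected counts per library, for which counting error alone is 1.67 to 1.31%, against a coefficient of variation of 5.63% over the 12 libraries. Mars, the member with the fewest reads, had 1156 to 1981 expected counts, a counting error of 2.94 to 2.25% and a coefficient of variation of 6.59%. The coefficient of variation of the other 5 members lay between 3.52% (Hars) and 5.88% (Wars). These counting errors cover the sampling of reads only.

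Among themselves the members were compared per transcript length, in TPM, the deposited level per transcript. Gars was the highest in every library, at 121.4 ± 9.43 TPM (SD, n = 12), above 93.4% of tested genes by mean TPM. Its range, 104.4 to 134.4 TPM, did not overlap that of Yars, the next member, at 73.3 to 97.0 TPM. Yars followed at 85.5 ± 7.35, Wars at 84.3 ± 6.66, Aars at 79.7 ± 4.24, Hars at 79.1 ± 3.81 and Kars at 76.2 ± 4.35 TPM (SD, n = 12). These 5 levels overlapped from each gene to the next: Yars exceeded Wars in 10 of 12 libraries, Wars exceeded Aars in 10, Aars exceeded Hars in 7, and Hars exceeded Kars in 11. Mars was the lowest in every library, at 41.5 ± 3.59 TPM, and its range stood apart from that of Kars. Across the cytosolic family the members lay inside the spread of the other 14 genes, whose mean levels ran from 23.9 TPM for Lars to 207.9 TPM for Sars. The mitochondrial counterparts were lower than their cytosolic partners: Hars2 averaged 26.8 TPM, Yars2 19.9, Aars2 15.7, Mars2 6.15 and Wars2 3.53 TPM.

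**Figure D1:**
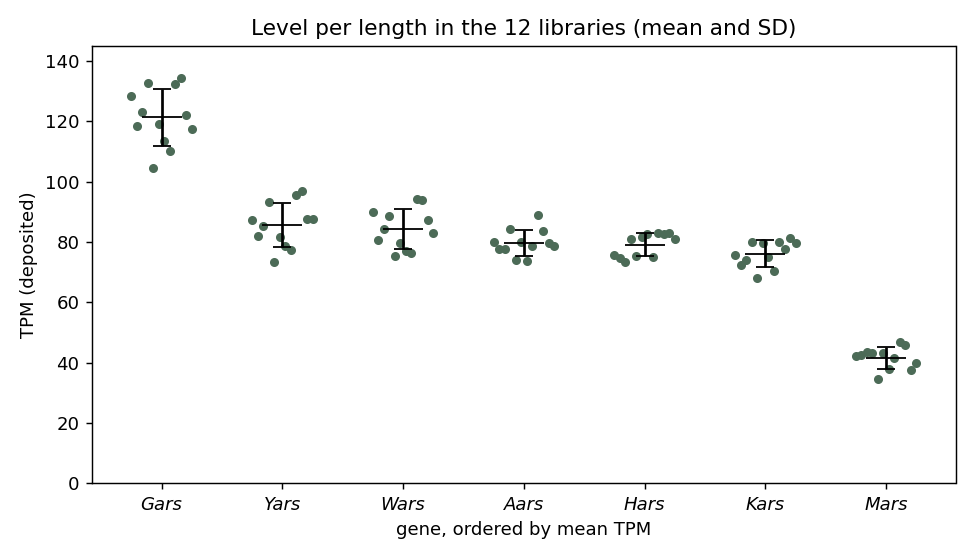
Level of each member in TPM (vertical axis, from 0), a level per transcript length, in each of the 12 libraries (points), with mean and SD over all libraries (bars) and genes ordered by mean. Gars lay between 104.4 and 134.4 TPM, above every other member in each library, and Mars was the lowest throughout.

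By library name, Gars rose by a small amount in C201R cords and was the 1 member of 7 that passed the test. Wars differed by as much but missed the threshold. Yars, Aars and Mars were also higher on average, Kars hardly differed, and Hars was lower on average; none of these passed. By title no member passed. Differences below are of CPM, expected counts scaled to a common library size, as log2 of C201R over WT with their standard error, tested with edgeR's quasi-likelihood test and Benjamini-Hochberg adjustment over all 17765 genes tested.

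Gars encodes glycyl-tRNA synthetase and carries the allele. By library name it had 143.3 to 154.7 CPM (median 150.9) in C201R cords, against 129.8 to 142.2 CPM (median 136.2) in WT cords. By library, the C201R cords held 150.3, 143.3, 146.3, 154.7, 151.5 and 152.4 CPM in libraries 1, 2, 3, 4, 9 and 10, and the WT cords held 129.8, 142.2, 135.0, 134.8, 139.4 and 137.3 CPM in libraries 5, 6, 7, 8, 11 and 12. The groups did not overlap, although library 2 (C201R) and library 6 (WT) lay next to each other. The mean was 149.8 ± 4.20 CPM in C201R cords and 136.4 ± 4.25 CPM in WT cords (SD, n = 6 each). The log2 difference was 0.15 ± 0.03 (SE; 95% interval 0.08 to 0.21; adjusted p = 0.0343 by edgeR), or 1.11-fold. Of all genes tested by library name, 0.715% passed this threshold (0.169% with higher values in C201R cords), and 0.585% had C201R libraries that all lay above every WT library. The Gars call was lost on leaving out any 1 of 8 libraries, namely library 1 (adjusted p = 0.104 by edgeR), 3 (0.0623), 4 (0.132), 7 (0.119), 8 (0.108), 10 (0.0614), 11 (0.056) or 12 (0.0722), while the log2 difference stayed between 0.13 and 0.15 over all 12 omissions.

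By title the Gars groups overlapped almost completely. C201R cords held 137.3 to 152.4 CPM (median 144.8), against 129.8 to 154.7 CPM (median 138.6) in WT cords, and the highest library of all was library 4. The means were 144.8 ± 5.97 CPM in C201R cords and 141.3 ± 9.99 CPM in WT cords (SD, n = 6 each). The log2 difference was 0.035 ± 0.046 (SE; 95% interval -0.07 to 0.13; adjusted p = 0.934 by edgeR). No gene of the 17765 passed by title with edgeR (0%). The C201R libraries all lay above the WT libraries for 0 members and 0.163% of genes. In the 8 libraries with agreeing labels, Gars averaged 148.1 ± 4.05 CPM in C201R cords and 135.5 ± 5.08 CPM in WT cords (SD, n = 4 each). There the log2 difference was 0.14 ± 0.04 with groups that did not overlap, and the adjusted p was 0.208 by edgeR.

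**Figure D2:**
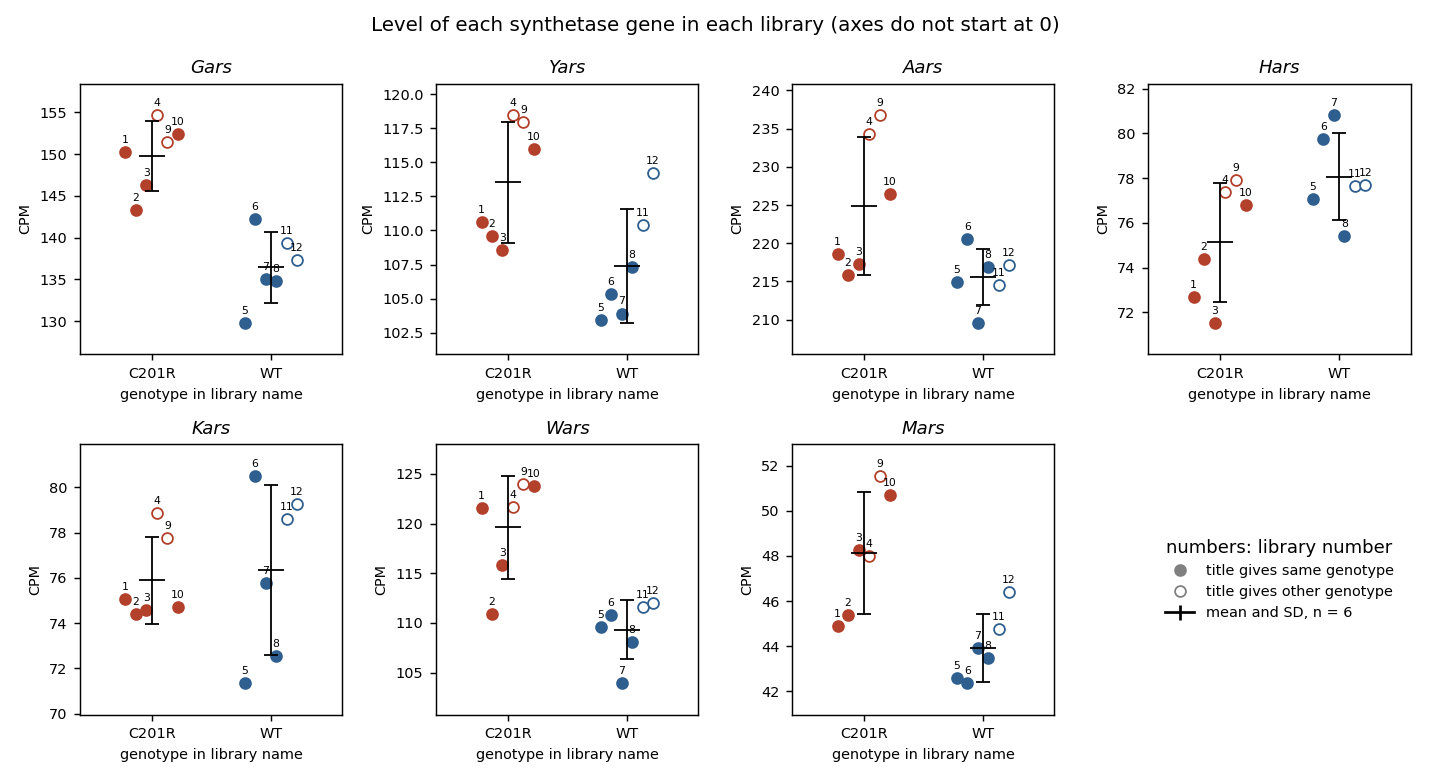
CPM of each member (vertical axes, not from 0) in each library (points, numbered by library), grouped by library name with C201R left of WT; bars are mean and SD (n = 6), and open points are the 4 libraries whose title gives the other genotype. The Gars libraries named C201R (143.3 to 154.7 CPM) stood above those named WT (129.8 to 142.2 CPM), whereas Kars overlapped fully.

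Of the other 6 members, Wars had the estimate closest to that of Gars by library name. Wars encodes tryptophanyl-tRNA synthetase, which interferon also induces in human cells. By library name its C201R libraries 1, 2, 3, 4, 9 and 10 held 121.6, 110.9, 115.8, 121.7, 124.0 and 123.8 CPM, against 109.6, 110.8, 103.9, 108.1, 111.6 and 112.0 CPM in WT libraries 5, 6, 7, 8, 11 and 12. Library 2 was the C201R library that fell within the WT range. The mean was 119.6 ± 5.22 CPM in C201R cords and 109.3 ± 3.00 CPM in WT cords (SD, n = 6 each). The log2 difference was 0.15 ± 0.03 (SE; 95% interval 0.08 to 0.21; adjusted p = 0.053 by edgeR). Without library 2 Wars passed (adjusted p = 0.021), and likewise without library 9 (adjusted p = 0.0481 by edgeR). By title Wars averaged 116.0 ± 5.56 CPM in C201R cords and 113.0 ± 7.98 CPM in WT cords, a log2 difference of 0.037 ± 0.048 (SE; adjusted p = 0.933 by edgeR).

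Yars encodes tyrosyl-tRNA synthetase. By library name it had 108.6 to 118.5 CPM (median 113.3) in C201R cords, against 103.4 to 114.2 CPM (median 106.3) in WT cords. The groups overlapped through WT libraries 11 and 12, at 110.4 and 114.2 CPM, and C201R libraries 1, 2 and 3, at 110.6, 109.6 and 108.6 CPM. For Yars the log2 difference was 0.09 ± 0.03 (SE; 95% interval 0.015 to 0.16; adjusted p = 0.303 by edgeR). By title Yars averaged 111.6 ± 2.87 CPM in C201R cords and 109.4 ± 6.99 CPM in WT cords (SD, n = 6 each; log2 difference 0.028 ± 0.040). Libraries 11 and 12, which changed sides between the groupings, had higher Yars than the other 4 libraries named WT.

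Aars encodes alanyl-tRNA synthetase. By library name it had 215.8 to 236.8 CPM (median 222.5) in C201R cords, against 209.6 to 220.6 CPM (median 215.9) in WT cords. Libraries 4 and 9 were the highest of all, at 234.3 and 236.8 CPM, followed by library 10 at 226.4 CPM, whereas C201R libraries 1, 2 and 3 lay among the WT values. The log2 difference was 0.07 ± 0.03 (SE; 95% interval 0.0021 to 0.13; adjusted p = 0.376 by edgeR). By title the sign turned, with 218.3 ± 4.20 CPM in C201R cords and 222.2 ± 11.0 CPM in WT cords (log2 difference -0.026 ± 0.033; adjusted p = 0.932 by edgeR). Libraries 4 and 9 are titled WT.

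Hars encodes histidyl-tRNA synthetase. By library name it had 71.5 to 77.9 CPM (median 75.6) in C201R cords, against 75.4 to 80.8 CPM (median 77.7) in WT cords. The mean was 75.1 ± 2.65 CPM in C201R cords and 78.1 ± 1.94 CPM in WT cords (SD, n = 6 each). By library name Hars thus differed by a log2 of -0.056 ± 0.030 (SE; 95% interval -0.12 to 0.0089; adjusted p = 0.472 by edgeR). By title it was -0.055 ± 0.029 (adjusted p = 0.766 by edgeR). Both label sets gave Hars nearly the same estimate, and C201R libraries 1, 2 and 3 were the 3 lowest of the 12.

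Kars and Mars belong to the multisynthetase complex, and Kars supplies lysyl-tRNA synthetase to mitochondria as well. By library name Kars had 74.4 to 78.9 CPM (median 74.9) in C201R cords, against 71.3 to 80.5 CPM (median 77.2) in WT cords, and the C201R range lay within the WT range. Its log2 difference was 0.0072 ± 0.033 (SE; 95% interval -0.065 to 0.079; adjusted p = 0.958 by edgeR), and by title it was -0.00081 ± 0.032. These intervals leave room for a log2 difference of about the size of the Aars estimate in either direction. Mars encodes methionyl-tRNA synthetase. By library name Mars had 44.9 to 51.6 CPM (median 48.1) in C201R cords, against 42.3 to 46.4 CPM (median 43.7) in WT cords, and the overlap came from C201R libraries 1 and 2 and WT library 12. The means were 48.1 ± 2.70 CPM in C201R cords and 43.9 ± 1.5 CPM in WT cords (SD, n = 6 each). The log2 difference was 0.12 ± 0.04 (SE; 95% interval 0.032 to 0.21; adjusted p = 0.235 by edgeR). By title the Mars difference was 0.043 ± 0.049 (adjusted p = 0.916 by edgeR).

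Counted together by library name, 6 of 7 members had an estimate above 0, as did 50.9% of all genes tested. The median log2 difference of the members was 0.09, and that of all genes was 0.0023. Unadjusted p was below 0.05 for 5 members (Gars, Yars, Aars, Wars and Mars) and for 12.8% of all genes. By title 4 members were above 0 and 3 below, with a median of 0.028 against 0.0012 for all genes, of which 50.7% were above 0. By title 0 members passed, 0 had an unadjusted p below 0.05, and 0 were called by DESeq2 or limma. By title 6.77% of all genes had an unadjusted p below 0.05.

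In the 8 libraries with agreeing labels 0 members passed with edgeR, DESeq2 or limma. Of all genes 0.163% passed with edgeR (0.0338% with higher values in C201R cords). DESeq2 called 255 genes in these libraries, and limma 12 to 267 by its settings. The estimates of 6 members were above 0, as were 52.1% of those of all genes. Hars was the member below 0, at -0.085 ± 0.037 (SE; adjusted p = 0.388 by edgeR), about as far from 0 as Yars. Aars was at 0.032 ± 0.032 and Kars at 0.00090 ± 0.042 (SE). There 4 members, Gars, Yars, Wars and Mars, had C201R libraries that all lay above the WT libraries, as did 3.82% of all genes, and the same 4 had an unadjusted p below 0.05, as did 13% of all genes. Yars averaged 111.2 ± 3.28 CPM in C201R cords and 105.0 ± 1.74 CPM in WT cords, a log2 difference of 0.08 ± 0.03 (adjusted p = 0.348 by edgeR). Wars averaged 118.0 ± 5.85 CPM in C201R cords and 108.1 ± 2.98 CPM in WT cords, a log2 difference of 0.14 ± 0.04 (adjusted p = 0.199 by edgeR). Mars averaged 47.3 ± 2.70 CPM in C201R cords and 43.1 ± 0.733 CPM in WT cords, a log2 difference of 0.12 ± 0.04 (adjusted p = 0.301 by edgeR; SD of means with n = 4 each, SE of differences). The 3 sets of comparisons share libraries and are not independent of each other.

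**Figure D3:**
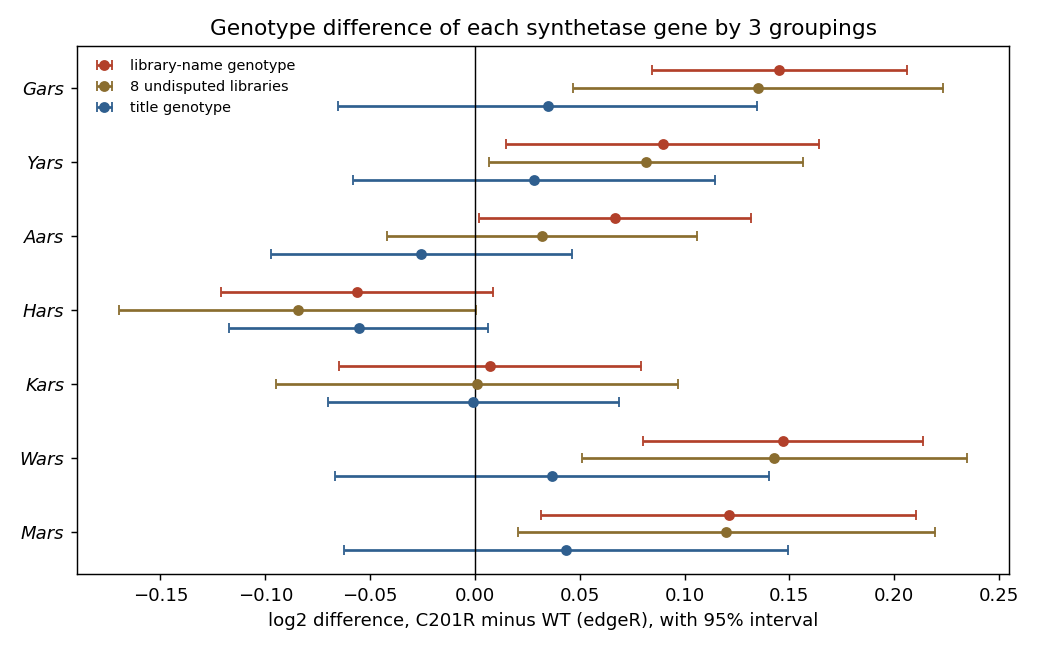
Log2 difference of CPM, C201R minus WT (horizontal axis), for each member by library name, in the 8 libraries with agreeing labels and by title. Points are edgeR estimates and bars their 95% intervals; the interval of Gars by library name ran from 0.08 to 0.21, and by title from -0.07 to 0.13.

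The genotype difference was also compared between titled females and titled males. No member and no gene passed that interaction test with edgeR (0%), and no member with DESeq2 or limma; 0 members had an unadjusted p below 0.05, as had 4.27% of all genes. The female minus male difference ran from -0.068 ± 0.094 for Gars to 0.034 for Hars, with an adjusted p of 0.984 for Gars by edgeR. Titled C201R females held 142.3 ± 6.99 CPM of Gars and titled WT females 142.3 ± 12.4 CPM, and titled C201R males held 147.3 ± 4.62 CPM and titled WT males 140.4 ± 9.60 CPM (SD, n = 3 each). By Xist and Y-linked genes, all titled WT females (libraries 4, 5 and 6) read as male, and all titled C201R females (1, 11 and 12) as female. Libraries 2 and 3 of the titled C201R males and library 8 of the titled WT males read as female. The comparison therefore describes the titled groups and cannot test whether genotype acts differently in females and males. The titled genotype is also in doubt for part of these libraries.

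Over the 12 libraries, 5 members varied together, Kars less closely with them, and Hars hardly at all. Pearson correlations of log2 CPM among Gars, Yars, Aars, Wars and Mars lay between 0.73 and 0.89 in all 10 of their pairs, highest for Gars with Wars. Hars correlated with those 5 at -0.32 to 0.057 and Kars at 0.17 to 0.42, and Hars with Kars at 0.47. Over all 21 pairs of members the median was 0.47 and the range -0.32 to 0.89. The 5 were grouped by these same correlations, so their high values follow in part from the grouping. These are descriptions over 12 libraries that share the genotype split, the depth and the scaling. How often pairs of other genes reach such values was not tested. The level of the 5 also differed within groups: libraries 4, 9 and 10 exceeded libraries 1, 2 and 3 in each of Gars, Yars, Aars and Wars among those named C201R, by 154.7, 151.5 and 152.4 CPM against 150.3, 143.3 and 146.3 CPM for Gars. Among those named WT, libraries 11 and 12 exceeded libraries 5, 6, 7 and 8 in Yars, Wars and Mars. By Xist and Y-linked genes, libraries 4, 9 and 10 read as male and libraries 1, 2 and 3 as female. The order among those named C201R thus coincides with expressed sex. Among those named WT, libraries 8, 11 and 12 read as female and 5, 6 and 7 as male. The labels state 2 library kits without assigning libraries to them. The parts of sex and of preparation in these differences were not tested.

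**Figure D4:**
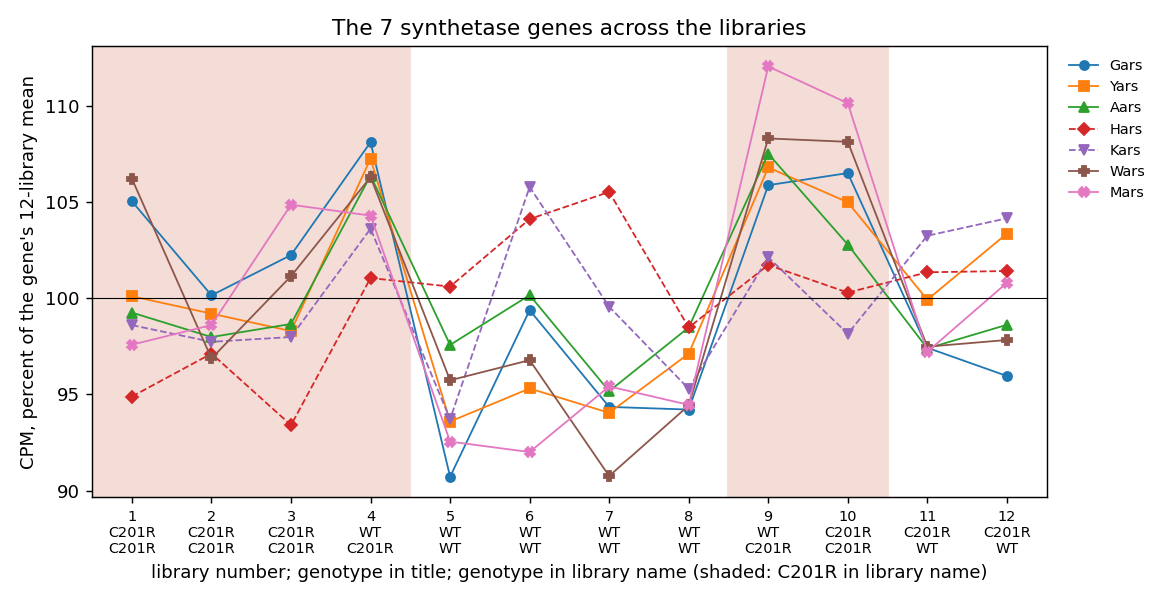
CPM of each member as a percent of its mean over the 12 libraries (vertical axis, not from 0), by library number, with the title genotype and the library-name genotype under each number and libraries named C201R shaded. Gars, Yars, Aars, Wars and Mars (solid lines) moved together (pairwise r between 0.73 and 0.89), while Hars and Kars (dashed) correlated with them at -0.32 to 0.057 and at 0.17 to 0.42.

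The 3 genes whose log2 CPM was most like each member were ranked by Pearson's r over the 12 libraries. They came from 15186 tested genes with a mean of at least 1 CPM, after leaving out names of the Gm, Rik and -ps kinds. Gars was most like Lonp1 (0.95), a mitochondrial matrix protease, Sdr39u1 (0.94) and the initiation factor gene Eif3c (0.93). Wars was most like Oaz1 (0.95), Rab11b (0.94) and Aldh18a1 (0.91), the last an enzyme of proline synthesis that rose by library name (log2 difference 0.23 ± 0.04; adjusted p = 0.0239 by edgeR). Yars was most like Kifc2, Adar and Drg1 (0.94 to 0.91), Aars like Abcg4, Lrp3 and Ddit3 (0.90 to 0.89), and Mars like the NMDA receptor gene Grin1 (0.97), Agt (0.93) and Rims3 (0.92). Hars was most like Stx18, Atp6ap1 and Znfx1 (0.93 to 0.91), and Kars like Nup98, Vars2 and Tcirg1 (0.91 to 0.88). All were picked as the highest of many correlations over only 12 libraries, so a high r follows from the selection. Whether any exceeds what unrelated genes would reach was not tested.

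Several members overlap or adjoin another gene. RSEM divides reads that fit more than 1 gene, the use of strand in counting is not stated, and how many reads were shared was not measured. Mars (reverse strand, chromosome 10, 127296221 to 127311786) overlaps the tail of Ddit3 by 68 bases; Ddit3, which encodes the stress factor CHOP, had 18.7 ± 1.64 CPM in C201R cords and 16.7 ± 0.811 CPM in WT cords by library name (log2 difference 0.19 ± 0.06; adjusted p = 0.195 by edgeR). Hars (reverse strand, chromosome 18, 36766528 to 36783205) and its mitochondrial paralog Hars2 lie head to head with an overlap of 198 bases. Hars2 had 21.8 ± 1.06 CPM in C201R cords and 20.9 ± 0.485 CPM in WT cords by library name (log2 difference 0.06 ± 0.04; adjusted p = 0.592 by edgeR), opposite in sign to Hars, and their shares of common reads are uncertain. Wars (reverse strand, chromosome 12, 108860030 to 108894174) overlaps Wdr25 by 544 bases, and Wdr25 had 10.3 CPM in C201R cords and 10.4 CPM in WT cords. Aars (forward strand, chromosome 8, 111033144 to 111057664) contains the whole 1326 bases of Exosc6 on the same strand in GENCODE M21. The M21 gene ID of Exosc6 has no row in the tables, and neighbours were looked up by ID only. Reads from Exosc6 may be counted as Aars, which was not tested. Yars (forward strand, chromosome 4, 129189760 to 129219607) starts 33 bases from the divergent S100pbp and overlaps C77080 by 30 bases. Kars (reverse strand, chromosome 8, 111993443 to 112011323) starts 75 bases from Terf2ip. By library name S100pbp, C77080 and Terf2ip differed by a log2 of 0.06 to 0.08, with adjusted p of 0.55, 0.724 and 0.323 by edgeR.

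The deposited length of a gene is the mean over its transcripts weighted by their estimated abundance, so it moves where isoform use moves. It was constant for Gars (2390 bases) and Hars (1987 bases). It ran from 2513 to 2691 bases for Yars, 5218 to 5523 for Aars, 2039 to 2053 for Kars, 2666 to 2787 for Wars and 1986 to 2482 for Mars. By library name the log2 length of Yars was lower in C201R cords by an estimate of -0.040 ± 0.014 (SE), with an adjusted p of 0.909 by limma over the 10788 genes whose length varied. No member and no gene passed this test by either label (0%); 1 member (Yars) and 5.14% of genes had an unadjusted p below 0.05 by library name, against 0 members and 4.48% of genes by title.

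Set beside the rest of the family, the members were not the only cytosolic synthetase genes that were higher. By library name 13 of 14 other cytosolic genes had an estimate above 0, with a median of 0.06, and 2 rose, Cars (0.18 ± 0.03; adjusted p = 0.0235 by edgeR) and Lars (0.20 ± 0.04; adjusted p = 0.0408), which load cysteine and leucine. Of all genes 50.9% were above 0 and 0.169% rose. Unadjusted p was below 0.05 for 6 of the 14 by library name, as for 12.8% of all genes; the others were Eprs, Nars, Rars and Tars. By title 10 of 14 were above 0, with a median of 0.012, and 0 passed, with 0 at an unadjusted p below 0.05. In the 8 libraries with agreeing labels 13 of 14 were above 0, with a median of 0.042, and 0 passed with edgeR. There 2 of the 14 had an unadjusted p below 0.05, as had 13% of all genes. Whether the Cars and Lars calls hold on leaving out libraries was not tested. The 17 mitochondrial synthetase genes split into 9 above 0 and 8 below by library name, with a median of 0.00018 and 0 passing; 1 had an unadjusted p below 0.05, Nars2, at -0.16 ± 0.06 (adjusted p = 0.319 by edgeR), followed by Ears2 at -0.13 ± 0.07. Of the 3 scaffold genes of the multisynthetase complex 0 passed and 0 had an unadjusted p below 0.05 by library name, with Aimp1 at 0.09 ± 0.05 and Eef1e1 at -0.051 ± 0.066.

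**Figure D5:**
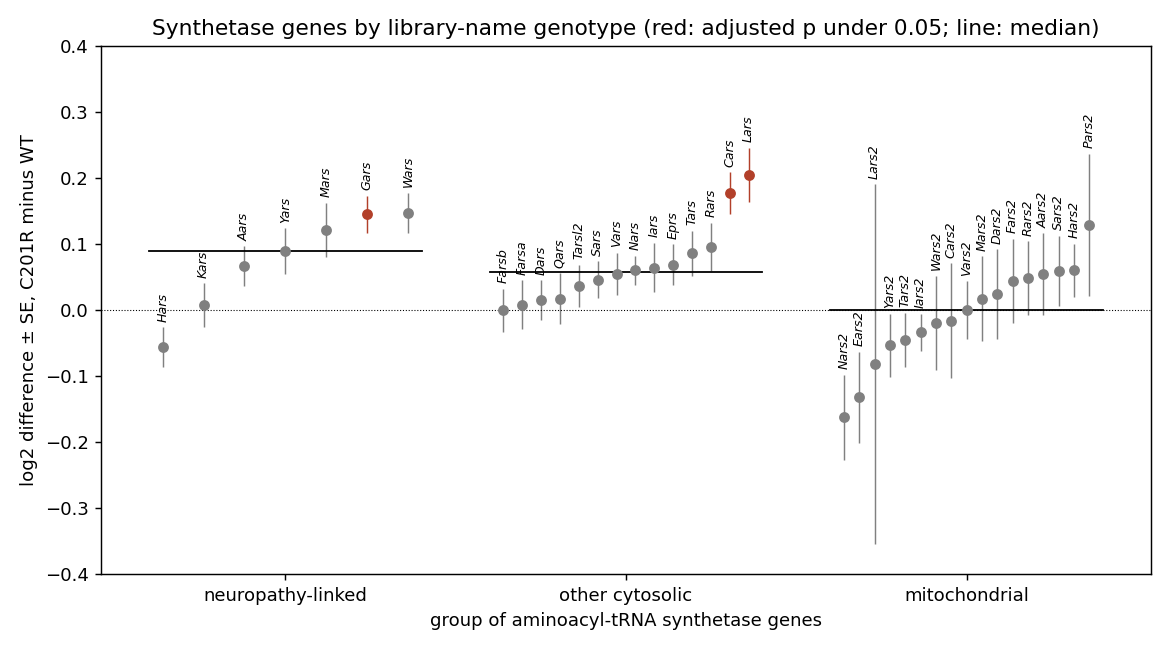
Log2 difference of CPM, C201R minus WT by library name (vertical axis), for the members, the other cytosolic and the mitochondrial synthetase genes, with edgeR estimates as points, SE as bars and each list's median as a line. Gars, Cars and Lars (red) passed the test, and the mitochondrial genes were spread around 0 with a median of 0.00018.

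The stress pathway that uses some synthetase genes as targets was read from a list of 34 other genes, chosen with earlier results of these libraries known. By library name 29 were above 0 and 11 rose, with a median log2 difference of 0.20, beside 50.9% of all genes above 0 and 0.169% that rose; the 4 of lowest p were Fgf21, Slc7a1, Sesn2 and Chac1. Slc7a1, a cationic amino acid transporter, was higher by 0.41 ± 0.03, Sesn2 by 0.38 ± 0.04 and Chac1 by 0.57 ± 0.07, each larger than any member's difference. Atf4 itself, named here after its value was seen, rose by 0.18 ± 0.03 (adjusted p = 0.0342 by edgeR). By title 24 of 34 were above 0 and 0 passed with edgeR, with 2 at an unadjusted p below 0.05. The 6 genes for the eIF2 alpha kinases and the partners of GCN2, the kinase that uncharged tRNA activates, were all above 0 by library name, with a median of 0.018; 0 passed and 1 had an unadjusted p below 0.05, Eif2ak2 (0.15 ± 0.07; adjusted p = 0.367 by edgeR), followed by Gcn1l1 (0.04 ± 0.03).

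Of the 9 motor neuron markers tested by library name, 7 had an estimate below 0 and 2 above 0. Among all genes 50.9% were above 0. Of the markers 4 fell (Chat, Chodl, Ahnak2 and Vipr2) and 5 did not pass, beside 97 of all 17765 genes that fell (0.715% called in either direction). The design named a shorter set of motor neuron markers, which held Chat but not Chodl, Ahnak2 or Vipr2. The longer list was chosen with earlier results of these libraries known, so its counts and sums are descriptions only. Of 10 listed motor neuron genes 9 were present by name in the deposited data, and Slc18a3 was not. These 9 summed to 308.4 to 350.6 CPM in cords named C201R, against 441.7 to 583.2 CPM in cords named WT. Ahnak2 gave the most to this sum (132.6 to 285.0 CPM over the 12 libraries). By title the sums overlapped, at 308.4 to 480.3 CPM in C201R cords and 319.4 to 583.2 CPM in WT cords. Oligodendrocyte genes (6 of 6) summed to 25780 to 29660 CPM in C201R cords, against 28730 to 31000 CPM in WT cords, and blood genes (6 of 6) to 589.7 to 2986 CPM, against 448.4 to 1273 CPM. Skeletal muscle genes (10 of 10) ranged from 70.5 to 2702 CPM in C201R cords and 75.3 to 2327 CPM in WT cords. Leukocyte genes (6 of 6 present, of which 5 reached 1 CPM in any library) ranged from 32.9 to 82.7 CPM in C201R cords and 12.9 to 88.7 CPM in WT cords. The part of these cell types in the synthetase values was not tested. Without libraries 1, 3, 6 and 8 the log2 difference of Gars by library name was 0.17 ± 0.04 and that of Wars 0.17 ± 0.05, with adjusted p of 0.444 and 0.543 by edgeR on the remaining 8 libraries.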

How the data were processed

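Total RNA of spinal cord was sequenced from poly(A)-selected libraries as paired reads of 75 bases, per the labels' protocols. Bowtie2 2.2.0 and RSEM 1.2.12 are named in the submitters' processing notes, while genome build and annotation were not stated. The deposited tables give, per the file headers, for each gene an expected count, TPM and an abundance-weighted length. RSEM's expected count divides reads that fit several genes.

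After rounding of the expected counts, filterByExpr on the 4 titled groups kept 17765 of 38924 genes, which were scaled by TMM and tested with edgeR 4.0.16 in R 4.3.3, with titled sex as a term, Benjamini-Hochberg adjustment over all genes and a threshold of 0.05. The standard error is the log2 difference over the root of the F statistic. Deposited TPM served for levels between genes and, with limma 3.58.1, for alternatives, as did DESeq2 1.42.0. Length was tested with limma on the log2 scale. Positions came from GENCODE M21 by gene ID; that release gives Gars another transcript length than the files, so it is not the authors' annotation. The pipeline was tested on simulated data in which every change was larger than any member's difference. That test therefore does not cover differences of the size found for the members.

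The members and lists were chosen with earlier results of these data known. Beyond the members, the genes named are up to 4 passing genes of lowest p in each list (otherwise the 2 of lowest p), the 3 genes most like each member, and overlapping or adjoining neighbours. Some items are not reported here.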

Additional observations from a re-analysis of the deposited data

Results flagged for a closer look

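One library stood apart from its group. Among the 6 libraries titled C201R, library 10 had 226.4 CPM of Aars, against 214.5 to 218.6 CPM in the others, a gap of 0.655 of the group's whole range. It was 1 of 72 groups checked, and chance alone flags about 1 group in 20. Libraries 4 and 9, which are titled WT and named C201R, had still higher Aars, at 234.3 and 236.8 CPM.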

How the results depend on the processing

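By title, in the 8 libraries with agreeing labels and for the interaction of genotype with titled sex, 0 members were called in all 23, 18 and 21 alternatives run. Of all genes these alternatives called 0 to 18 by title (18 with DESeq2), 1 to 267 in the 8 libraries and 0 to 2 for the interaction. By library name 1 member of 127 genes was called as reported. The number was 2 members of 335 genes with DESeq2, 2 of 127 with a filter at a mean of 1 CPM, 2 of 162 with voom and quality weights, and 4 of 235 with library number as a linear term (Gars, Yars, Wars and Mars). It was 0 of 109 with no filter, 0 of 41 and 0 of 42 with limma on log2(TPM + 1) and log2(TPM + 0.1), 0 of 6 without the 6 libraries against their titled sex, and 0 of 12 without the 4 highest in skeletal muscle. Leaving out 1 library gave 0 to 2 members, of 54 to 221 genes. The Gars difference by library name stayed at 0.13 to 0.18 and its call held in 10 of 23 alternatives (adjusted p 0.00043 to 0.514 over edgeR, DESeq2 and limma). Wars passed in 6 of 23. Values that changed sign belonged to uncalled members. For Kars by title they were 0.028 and 0.028 with log2(TPM + 1) and log2(TPM + 0.1), 0.0048 with voom and 0.015 without the muscle-rich libraries, and -0.025 to 0.013 on leaving out 1 library. For Kars by library name they were -0.0085 with no sex term and -0.036 without the libraries against their titled sex (-0.0086 to 0.024 on leaving out 1 library). For Kars in the 8 libraries they were -0.0060 with no sex term and -0.024 without the muscle-rich libraries (-0.023 to 0.029 on leaving out 1 library). Aars by title became 0.018 without the libraries against their titled sex, and Wars by title -0.0037 without the muscle-rich libraries; the cause was not tested. Leaving out the libraries against their titled sex could not be fitted for the 8 libraries or the interaction. No paired analysis was possible because the numbers 1 to 12 are each used once and no group shares a number with another.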
